A study of Mus musculus with 6 samples.

Results

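The 10 genes described here are the receptors, receptor-activated Smads and 1 ligand of the TGF-beta and BMP pathways. The TGF-beta branch consists of Tgfb2, Tgfbr1, Tgfbr2, Smad2 and Smad3, and the BMP branch of Bmpr1a, Bmpr1b, Bmpr2, Smad1 and Smad5. Probes were assigned to them by matching the accession of each non-control probe to RefSeq, which gave 17 probes for the 10 genes out of 19984 gene symbols named on the array. All 10 genes entered the comparison of 13131 tested genes. Tgfbr2 did so through the Tis21-GFP negative group alone, since its probe gave a signal clearly over background on only 1 positive array, against all 3 negative arrays.

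Ligands of this superfamily bind a pair of serine/threonine kinase receptors, in which the type II receptor phosphorylates the type I receptor. The type I receptor then phosphorylates receptor-activated Smads, which enter the nucleus with the common partner Smad4 and regulate transcription. Smad2 and Smad3 carry signals of TGF-beta and activin, and Smad1 and Smad5 carry signals of BMP. In the developing cortex, BMP signalling is known for its part in dorsal patterning and, later, in glial differentiation, and TGF-beta ligands are known to act on neurogenesis and on neuronal polarity.

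Gene expression was measured in S-phase cells of the mouse dorsal telencephalon at embryonic day 14.5 on 1-colour arrays, 3 for Tis21-GFP positive cells and another 3 for cells without GFP, called negative. All embryos were C57BL/6 and carried 1 GFP knock-in copy of the Tis21 (Btg2) locus, so both groups share that allele, and each replicate pooled 30 hemispheres of 15 embryos. Tis21-GFP marks progenitors that have turned to neuron production, and the comparison asks how their S-phase transcriptome differs from that of proliferating progenitors. Cells were gated on DNA content and GFP, and the labels name no marker of cell type in the sort.

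Values are log2 signals scaled to 0 at each array's 75th percentile, and differences are positive minus negative, with the standard error of limma's moderated test. A gene is said to have risen or fallen where its Benjamini-Hochberg adjusted p over all tested genes was below 0.05. Btg2, which drives the reporter, was at 1.32, 1.84 and 1.67 on the positive arrays, against 0.67, 0.91 and 0.94 on the negative arrays (difference 0.77 ± 0.17, adjusted p = 0.0139). Eomes, the transcription factor of intermediate progenitors, rose by 3.42. Of all tested genes, 25.9% passed, of which 49.6% were higher, and this share was 65.9% with median centring, 29.0% where the percentile came from probes detected throughout (on all 6 arrays) and 39.5% in the authors' processed values. The median difference of all tested genes was 0.12, and it was 0.30 with median centring and -0.06 with the percentile over detected probes. Signals well above background made up 51.2% to 56.2% of probes per array, and array values correlated across genes at 0.983 to 0.992 within groups and 0.954 to 0.972 between them. Each group has 3 arrays, which limits the precision.

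Tgfb2, Tgfbr2 and Smad3 of the TGF-beta branch and Bmpr1b of the BMP branch fell in Tis21-GFP positive cells, while Tgfbr1, Smad2 and Smad1 rose and Bmpr1a, Bmpr2 and Smad5 did not pass. Tgfb2, Smad3 and Bmpr1b, measured above background throughout, fell by between 2.14-fold and 2.96-fold, and the 3 that rose did so by between 1.41-fold and 1.56-fold. No fold is given for Tgfbr2, whose signal was not clearly above background on 2 of the 3 positive arrays. Falls were thus called in 4 of 10 members, against 13.1% of all tested genes, and rises in 3 of 10, against 12.9%. The groups did not overlap for 7 of the 10 members, against 46.8% of all tested genes: the positive arrays were all above the negative ones for 3 members, against 28.2% of tested genes, and all below for 4, against 18.6%. The falls of Tgfb2 and Smad3 passed under all 17 alternative settings, whereas Tgfbr2 was not tested where probes had to be above background on all 6 arrays, and the number of rises was 2 without each of the positive replicates, 1 without negative replicate 2, 1 without negative replicate 3 and 0 without negative replicate 1. In bulk samples such as these, fewer cells that express a gene and less of its RNA per cell cannot be told apart.

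**Figure D1:**
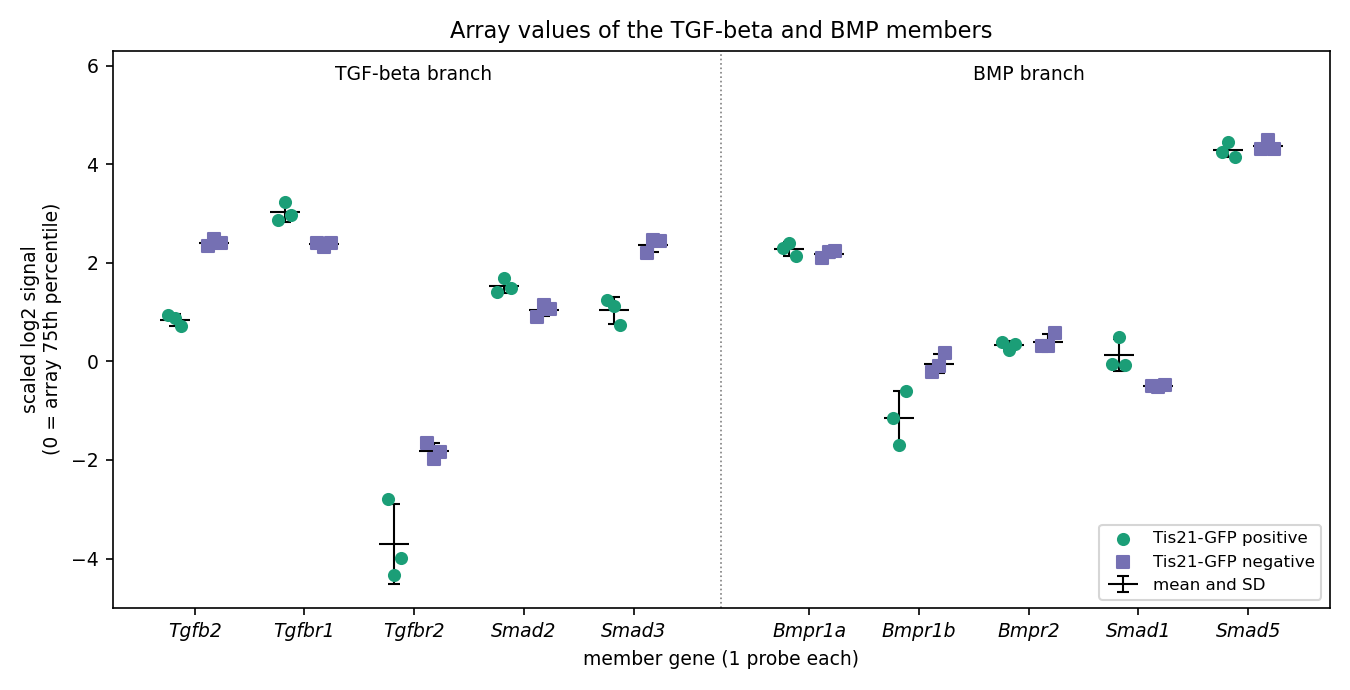
Scaled log2 signal (y axis, 0 at the array's 75th percentile) of the 10 members on each of the 3 Tis21-GFP positive arrays (green circles) and the 3 negative arrays (purple squares), with mean and SD. The groups stand apart for all 5 TGF-beta branch genes and for Bmpr1b and Smad1, and overlap for Bmpr1a, Bmpr2 and Smad5. Of all tested genes, 46.8% had groups that did not overlap. Tgfbr2 was clearly above background on only 1 positive array. Heights of different genes are not comparable, since each comes from its own probe.

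In the TGF-beta branch, the ligand had the smallest adjusted p of all members. Tgfb2 encodes a secreted ligand and had a scaled log2 signal of 0.94, 0.88 and 0.71 on the positive arrays, against 2.33, 2.49 and 2.39 on the negative arrays. All 3 positive arrays lay far below all 3 negative arrays, and the difference was -1.56 ± 0.13 (2.96-fold lower, adjusted p = 0.000258). This placed Tgfb2 at percentile 3.68 of the differences of all tested genes.

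The type II receptor fell and the type I receptor rose. Tgfbr2, the type II receptor that binds TGF-beta ligands, was at -2.79, -4.34 and -3.99 on the positive arrays, against -1.65, -1.97 and -1.83 on the negative arrays. Its groups did not overlap, the positive arrays were spread more widely (SD 0.81) than the negative arrays (SD 0.16), and the difference was -1.89 ± 0.36 (adjusted p = 0.00744). Because only 1 of the 3 positive values was clearly above background, the size of this difference is not settled. With normexp background correction, which adds an offset to every signal and so shrinks the differences of dim probes, the Tgfbr2 difference was -0.60 and still passed. Tgfbr1, the type I receptor kinase also called Alk5, was at 2.86, 3.23 and 2.97 on the positive arrays, against 2.40, 2.33 and 2.41 on the negative arrays. All positive arrays were above all negative arrays, with a difference of 0.64 ± 0.14 (1.56-fold higher, adjusted p = 0.0139). Without negative replicate 1 the Tgfbr1 difference was 0.65 and missed the threshold (adjusted p = 0.0517), and with the mean of its probes it was 0.38 (adjusted p = 0.135), so that the adjusted p ranged from 0.0032 to 0.135 over the alternatives.

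Smad2 and Smad3, the closely related effectors of the TGF-beta and activin receptors, went opposite ways. Smad3 was at 1.25, 1.12 and 0.73 on the positive arrays, against 2.20, 2.47 and 2.44 on the negative arrays. The groups lay well apart and Smad3 fell by 1.34 ± 0.17 on the log2 scale (2.53-fold, adjusted p = 0.00122). Smad2 was at 1.41, 1.69 and 1.49 on the positive arrays, against 0.90, 1.14 and 1.07 on the negative arrays. Here all positive arrays were above all negative arrays, by 0.49 ± 0.14 (1.41-fold higher, adjusted p = 0.0372). The rise of Smad2 is the weakest of the calls: leaving out any of the 6 arrays kept its direction at differences of 0.41 to 0.55 but ended the call, as did quantile normalization (0.39), the authors' processed values (0.38), the percentile over detected probes (0.32), no filter on dim probes (0.49) and the fit over all probes (adjusted p = 0.0624). Over all alternatives its adjusted p ran from 0.0218 to 0.134.

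The 3 lower genes of this branch each have a single annotated start in the RefSeq promoter table (build GRCm38.p6, which listed 9 of the 10 members). The 250 bases before that start are shown for them, as the nearest regulatory sequence of the TGF-beta branch genes that moved together; all lie on the minus strand, at chr1:186705990-186706239 for Tgfb2, chr9:116175364-116175613 for Tgfbr2 and chr9:63757995-63758244 for Smad3. Capitals mark CAGAC or its reverse complement GTCTG, the core of Smad-binding elements. The palindrome GGCGCC, a GC-rich sequence described for Smad1 and Smad5, was searched as well.
Tgfb2: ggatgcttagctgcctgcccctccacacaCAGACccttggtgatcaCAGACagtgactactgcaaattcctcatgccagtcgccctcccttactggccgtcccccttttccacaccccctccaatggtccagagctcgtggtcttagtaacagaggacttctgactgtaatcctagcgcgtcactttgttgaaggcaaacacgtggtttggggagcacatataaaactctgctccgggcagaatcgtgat
Tgfbr2: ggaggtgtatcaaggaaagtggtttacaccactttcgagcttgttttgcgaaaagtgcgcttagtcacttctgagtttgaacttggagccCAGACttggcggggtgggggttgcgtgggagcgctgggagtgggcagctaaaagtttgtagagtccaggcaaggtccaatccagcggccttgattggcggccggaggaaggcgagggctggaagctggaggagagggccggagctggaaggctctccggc
Smad3: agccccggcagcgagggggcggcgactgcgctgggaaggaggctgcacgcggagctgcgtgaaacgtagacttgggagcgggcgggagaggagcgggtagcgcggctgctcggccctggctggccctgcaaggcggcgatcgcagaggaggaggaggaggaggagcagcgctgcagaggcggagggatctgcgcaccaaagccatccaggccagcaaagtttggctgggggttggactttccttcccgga
The Tgfb2 window holds 2 CAGAC matches, that of Tgfbr2 holds 1 and that of Smad3 holds 0, and none of the 3 windows holds GGCGCC, so no matches of the 2 motifs overlap. Among all 32851 promoter windows of this length in the table, 42.2% hold CAGAC or GTCTG and 9.59% hold GGCGCC. These matches are descriptions of the sequence, and no binding was measured.

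In the BMP branch, the type I receptor Bmpr1b fell, the effector Smad1 rose and the other 3 genes did not pass. Bmpr1b, a type I BMP receptor also called Alk6, was at -1.14, -1.70 and -0.60 on the positive arrays, against -0.22, -0.09 and 0.17 on the negative arrays. No positive array reached the lowest negative array, although the positive arrays varied among themselves (SD 0.55, against 0.20 on the negative arrays), and the difference was -1.10 ± 0.27 (2.14-fold lower, adjusted p = 0.0199). Without negative replicate 1, 2 or 3 the Bmpr1b difference was -1.19, -1.12 and -0.99 and missed the threshold (adjusted p = 0.0521, 0.0589 and 0.0747), and its adjusted p ran from 0.00333 to 0.0747 over the alternatives. Bmpr1a, the other type I BMP receptor, also called Alk3, was at 2.31, 2.40 and 2.13 on the positive arrays, against 2.09, 2.21 and 2.25 on the negative arrays. The groups overlapped, with a difference of 0.09 ± 0.13 and a 95% interval of -0.22 to 0.40 (adjusted p = 0.627), and the sign was negative with quantile normalization, with the percentile over detected probes and with the authors' processed values.

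Bmpr2, the type II BMP receptor, was at 0.40, 0.24 and 0.34 on the positive arrays, against 0.32, 0.31 and 0.57 on the negative arrays. These values overlapped, and the difference of -0.07 ± 0.14 had a 95% interval of -0.39 to 0.24 (adjusted p = 0.707), with a positive sign under median centring and without negative replicate 3. Smad1, a BMP effector, was at -0.05, 0.49 and -0.08 on the positive arrays, against -0.51, -0.52 and -0.48 on the negative arrays. The negative arrays were nearly level and all positive arrays were above them, replicate 2 the furthest, giving a difference of 0.62 ± 0.18 (1.54-fold higher, adjusted p = 0.0363). Without positive replicate 2 the Smad1 difference was 0.44 and still passed, while without negative replicate 1, 2 or 3 it was 0.62, 0.62 and 0.63 and did not (adjusted p = 0.107, 0.0900 and 0.0997). It also missed the threshold with the percentile over detected probes (0.45), with no filter on dim probes (0.62) and in the fit over all probes (adjusted p = 0.0581), with adjusted p from 0.0133 to 0.107 over the alternatives. Smad5, the second BMP effector, was at 4.25, 4.44 and 4.15 on the positive arrays, against 4.32, 4.49 and 4.32 on the negative arrays. Each positive array was below its same-numbered negative array, but the groups overlapped and the difference was -0.09 ± 0.14, with a 95% interval of -0.41 to 0.23 (adjusted p = 0.641). The Smad5 difference depended on the scaling: it was -0.35 with quantile normalization (adjusted p = 0.0593), -0.36 in the authors' processed values (adjusted p = 0.0572) and 0.09 with median centring.

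**Figure D2:**
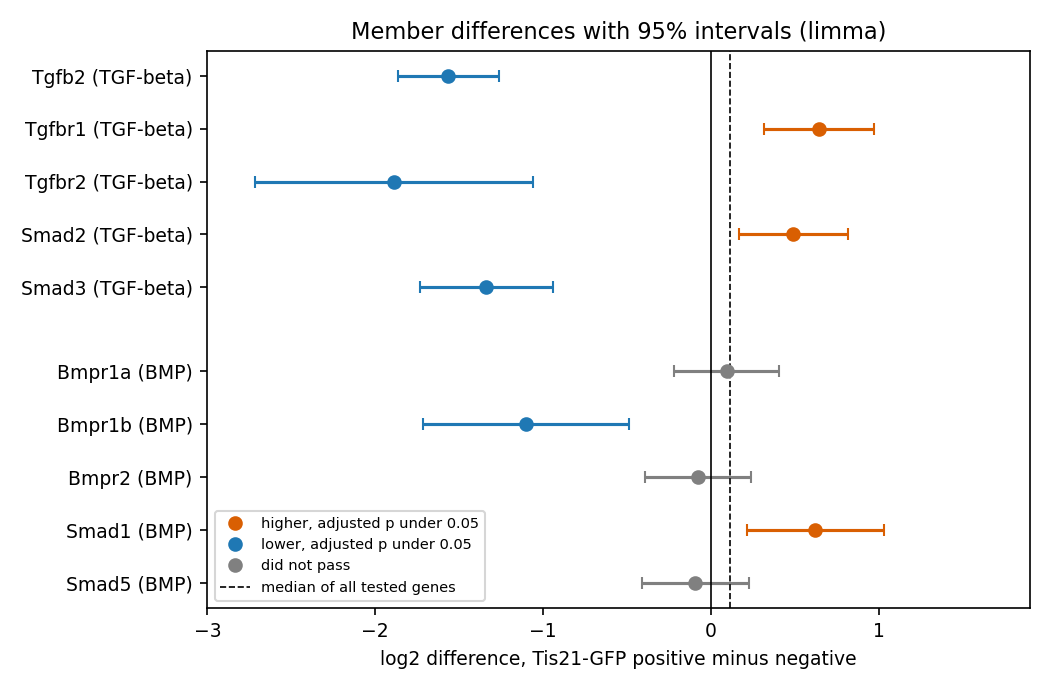
Log2 difference, Tis21-GFP positive minus negative (x axis), of each member with its 95% interval from limma, TGF-beta branch above and BMP branch below. All 5 TGF-beta branch genes lie off the line at 0 (3 below, 2 above), while the intervals of Bmpr1a, Bmpr2 and Smad5 span it. Of all tested genes, 25.9% passed. The size of the Tgfbr2 difference is not settled, since only 1 positive array had it clearly above background. The dashed line is the median of all tested genes, 0.12.

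Side by side, all 5 TGF-beta branch genes passed, 3 lower and 2 higher, and 2 of the 5 BMP branch genes passed, 1 lower and 1 higher. Of all tested genes, 25.9% passed. These counts are not firm: Smad2 passed under 6 and Smad1 under 11 of 17 alternatives. None of the rises had a second probe that passed: those of Tgfbr1 and Smad1 did not pass, and Smad2 had no second probe. Tgfbr2 was tested through the negative group alone. The median difference was -1.34 over the TGF-beta branch, with members between -1.89 and 0.64, and -0.07 over the BMP branch, with members between -1.10 and 0.62, beside 0.12 over all tested genes. Between same-numbered arrays, the TGF-beta median was -0.95, -1.35 and -1.69, and the BMP median was 0.08, -0.05 and -0.16. Each median of 5 genes rests on the gene in the middle: with probes required to be above background on all 6 arrays, which removes Tgfbr2, the TGF-beta median was -0.42, and with normexp background correction it was -0.60. No test of the branches against each other was made, since the members were chosen with earlier results of these data known.

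Ratios between related members on the same array do not depend on how that array was scaled, and the 5 ratios examined were lower on every positive array than on any negative array. Each ratio was written with a fallen member on top or a risen member below. Their shared direction therefore restates the calls of the members and adds no separate evidence. The log2 ratio of Smad3 to Smad2 was -0.16, -0.57 and -0.75 on the positive arrays, against 1.29, 1.33 and 1.37 on the negative arrays, a change of -1.83. The arrays of each group were thus clearly apart, and the negative arrays almost coincided. For Smad5 over Smad1 the ratio changed by -0.71, with 4.16 ± 0.19 in positive cells and 4.88 ± 0.11 in negative cells (SD, n = 3 arrays each). Among receptors, the ratio of Bmpr1b to Bmpr1a changed by -1.19, while those of Tgfbr2 to Tgfbr1 and of Tgfbr2 to Bmpr2 were lower by amounts that are not settled, since only 1 positive array had Tgfbr2 clearly above background. An exact test over the 20 splits of the arrays gave a two-sided p of 0.1 for each ratio. That is the lowest value 3 arrays per group allow, so the test decides nothing. The ratios are given as descriptions, because the members were chosen with earlier results known. A ratio within an array shows unequal change of its genes, and its absolute value carries no meaning across probes.

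Other probes of the members gave a second reading for 7 of the 10 genes, while Smad2, Bmpr1a and Bmpr2 had no second probe. In a fit over all 28924 tested probes, in which 16.5% passed, the second probe of Tgfb2 stood at -1.82 (adjusted p = 0.00104) beside -1.56 for the first, and that of Bmpr1b at -0.74 (adjusted p = 0.0300) beside -1.10. Both probes of each of these genes therefore fell. The second Smad1 probe was at 0.42 (adjusted p = 0.0902) and that of Smad5 at 0.06 (adjusted p = 0.791), neither of which passed. The second Tgfbr1 probe was at 0.12 (adjusted p = 0.808), beside 0.64 for the brighter one, and its groups overlapped, so the rise of Tgfbr1 rests on a single probe. The second probes of Tgfbr2 and Smad3 were too dim to be tested, and that of Smad3 was above background on 2 negative arrays and on 0 positive arrays.

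Genes whose profile over the 6 arrays, centred on each gene's mean, was nearest to a member were sought for the member with the lowest and the member with the highest difference. Nearest to Tgfbr2 were Veph1, Dok6 and Wnt7a, with root mean square differences of 0.13, 0.18 and 0.18 on the log2 scale, against a median of 1.13 over all tested genes. The Tgfbr2 profile includes 2 positive-array values that were not clearly above background, so this likeness is partly one of values near the background. Nearest to Tgfbr1 were B4galt5, Dlg3 and Slc25a27, at 0.034, 0.050 and 0.050, against a median of 0.35.

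Among other genes of the pathway, falls were more numerous than rises. Of 82 listed genes, 65 were tested, of which 19 fell, or 29.2% beside 13.1% of all tested genes, and 3 rose, or 4.62% beside 12.9%. Their median difference was -0.22, beside 0.12 over all tested genes. With median centring 6 rose and 13 fell, with the percentile over detected probes 3 rose and 26 fell, and with a variance trend and robust fit 5 rose and 18 fell. The counts by role below are to be read beside the shares of all tested genes, 13.1% for falls and 12.9% for rises.

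Secreted ligands fell where they passed. Of 6 tested TGF-beta and activin ligands, 1 fell and 0 rose: Inhba, the activin A subunit, was over background on all 3 negative arrays and on 0 positive ones (adjusted p = 0.000819). With positive values raised to the lowest signal above background on each array, its signal was 3.38-fold less in positive cells. With normexp background correction the Inhba difference was -0.72 on the log2 scale, smaller in size than that fold. The offset of that correction shrinks the differences of dim probes by construction, so this value does not test the fold. The fold rests on the lowest signal called above background and is not a firm lower bound. Of 7 tested BMP and GDF ligands, 3 fell and 0 rose. Bmp7 was at -0.73, -0.84 and -0.32 on the positive arrays, against 0.34, 0.56 and 0.62 on the negative arrays, without overlap, and fell by 1.14 ± 0.17 (adjusted p = 0.00262). Gdf5 stood at -0.72 ± 0.13, a call lost with normexp (-0.21) and with the mean of its probes (-0.46). Bmp3, an atypical family member known to oppose other BMPs in bone, stood at -1.39 ± 0.30, a call lost with normexp (-0.17), quantile normalization (-1.23), the authors' processed values (-1.23), without negative replicate 1 (-1.25) and without negative replicate 2 (-1.33). Bmp3 was above background on only 1 positive array and was tested through the negative group alone, so the size of its difference is not settled.

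Other receptors mostly did not pass: of 10 tested, 1 rose and 0 fell. That gene was Rgmb, a membrane-anchored BMP co-receptor, at -2.51, -2.29 and -2.74 on the positive arrays, against -3.91, -4.32 and -3.71 on the negative arrays, a difference of 1.47 ± 0.20 (adjusted p = 0.00151) that was 0.67 with normexp. The inhibitory Smads, which block receptor signalling and are induced by it as feedback, were both lower: Smad7 by a difference of -0.69 ± 0.15 (adjusted p = 0.0142) and Smad6 by -0.72 ± 0.18 (adjusted p = 0.0214). Smad4, the common partner and the third of 3 tested genes in its role, was at 0.25 ± 0.15 and did not pass (adjusted p = 0.246). Median centring ended the calls of Smad7 (-0.51) and Smad6 (-0.54), and that of Smad6 was also lost with normexp (-0.34), no filter on dim probes (-0.72), without negative replicate 1 (-0.64) and without negative replicate 2 (-0.72).

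Extracellular binding proteins held the largest number of falls, 7 of 13 tested, with 0 rises and a median of -0.71. Ltbp4 and Ltbp1, latent TGF-beta binding proteins that tether the inactive ligand in the matrix, fell by 1.39 ± 0.15 (adjusted p = 0.000548) and 1.16 ± 0.14. Ltbp4 was at 2.32, 2.02 and 1.93 on the positive arrays, against 3.48, 3.42 and 3.54 on the negative arrays. Bmper, a secreted BMP-binding protein, fell by 1.30 ± 0.15 and Fstl1, a follistatin-like secreted protein, by 1.52 ± 0.22. These 4 calls held under all alternatives run. Of 15 tested intracellular regulators, 2 rose and 1 fell, beside 12.9% and 13.1% of all tested genes. Nedd4l, a ubiquitin ligase, was higher by 0.88 ± 0.18 (adjusted p = 0.0112), a call lost without negative replicate 1 (0.80). Skil and Ski encode the related Smad corepressors SnoN and Ski: Skil was higher by 0.61 ± 0.14 (adjusted p = 0.0168), a call lost without negative replicate 1 (0.58) or 3 (0.59), and Ski was at -0.61 ± 0.12 (adjusted p = 0.00884), a call lost with normexp (-0.23), median centring (-0.43) and the variance trend (-0.61).

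Known targets of both branches included genes that fell and none that rose. Of 6 tested BMP targets, Id4 fell by 1.09 ± 0.19 (adjusted p = 0.00503) and Id1 by 0.73 ± 0.19 (adjusted p = 0.0247). The other 4 did not pass and went both ways, with Id2 at 0.55, Msx2 at 0.33, Id3 at -0.43 and Msx1 at -0.57. Id proteins bind E proteins and thereby block proneural bHLH factors. The Id1 call was lost with median centring (-0.55), without a filter on dim probes (-0.73), without positive replicate 2 (-0.59) and without negative replicate 1 (-0.82), 2 (-0.59) or 3 (-0.80). Of 5 tested TGF-beta targets, 3 fell, among them Tgfbi and Ccn2. Tgfbi, an extracellular matrix protein, was at -3.01, -2.88 and -4.74 on the positive arrays, of which 2 were above background, against -0.86, -1.01 and -0.75 on the negative arrays (difference -2.67 ± 0.44, and -1.23 with normexp). Ccn2, a matricellular protein also called Ctgf, was at -0.85, -1.17 and -3.53 on the positive arrays, against 1.55, 1.74 and 0.00 on the negative arrays. Replicate 3 was the lowest in both groups for Ccn2, and its difference of -2.95 ± 0.72 (adjusted p = 0.021) did not pass without negative replicate 1 (-2.72) or 2 (-2.62), with no filter on dim probes (-2.95) or with the variance trend (-2.95).

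**Figure D3:**
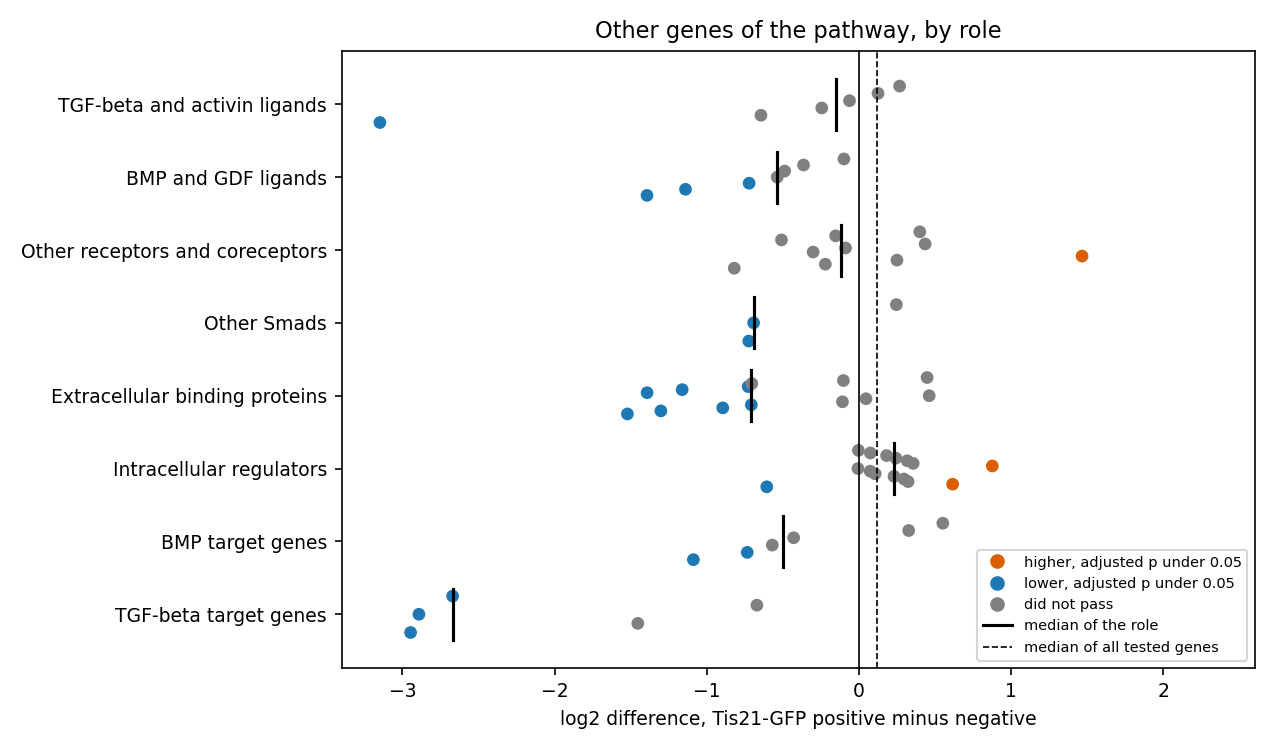
Log2 difference, Tis21-GFP positive minus negative (x axis), of 65 tested pathway genes other than the 10 members, 1 point per gene, by role. Blue points fell and orange points rose. Of 13 extracellular binding proteins 7 fell, beside 13.1% of all tested genes. Of 15 intracellular regulators 2 rose, beside 12.9% of all tested genes.

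Most tested markers of microglia, mesenchyme, vessels and radial glia fell in the same cells as the members that fell, whereas those of intermediate progenitors and most of those of neurons rose. Among all tested genes, 13.1% fell and 12.9% rose. Of 11 tested microglia and macrophage markers, 10 fell and 0 rose (median -2.34), and their signals, summed on a linear scale relative to each array's 75th percentile, were 24.0 to 29.7 on the positive arrays, against 42.6 to 48.0 on the negative arrays. Most of that sum is Itgam, the marker that did not pass. It was at 4.34, 4.30 and 4.58 on the positive arrays, against 4.66, 4.70 and 5.07 on the negative arrays. All 7 tested markers of meninges and mesenchyme fell, with summed signals of 0.625 to 0.916, against 4.55 to 9.04. Their median of -3.50 is the difference of Col1a1, which was above background on only 1 positive array, so its size is not settled. Of 8 tested endothelial and pericyte markers, 5 fell and 0 rose (median -1.23), while the sum was 9.55 to 10.6 on the positive arrays, against 8.26 to 9.45. This sum is mostly Kdr, which did not pass, so it says little about the other markers. Kdr was at 3.22, 3.20 and 3.31 on the positive arrays, against 2.57, 2.94 and 2.86 on the negative arrays. On the positive arrays, P2ry12, Col3a1, Lum, Pdgfrb, Rgs5 and Abcc9 were above background on none, and Cx3cr1, Col1a1, Nid1, Flt1 and Gad1 on only 1 or 2. These genes were tested through the negative group alone, where they were brighter, so the sizes of their differences are not settled. Radial glia markers fell in 6 of 7 (median -0.81), with sums of 119 to 143, against 237 to 281, and all 4 intermediate progenitor markers rose (median 2.57). Of 5 neuron markers, 4 rose and 1 fell, with sums of 96.3 to 126, against 56.4 to 83.8. Of 5 markers of the ventral telencephalon and interneurons, 1 fell and 4 did not pass (median -0.26), with sums of 5.85 to 7.59, against 6.76 to 11.4. Those sums are mostly Lhx6, which did not pass. Of 4 tested red blood cell markers, 4 did not pass (median -0.28), with sums of 12.4 to 37.5, against 24.1 to 37.0. Tgfbr2, Tgfbi and Ccn2 are known to be expressed in mesenchymal or vascular cells, and the part of these markers in the falls of pathway genes was not tested.

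**Figure D4:**
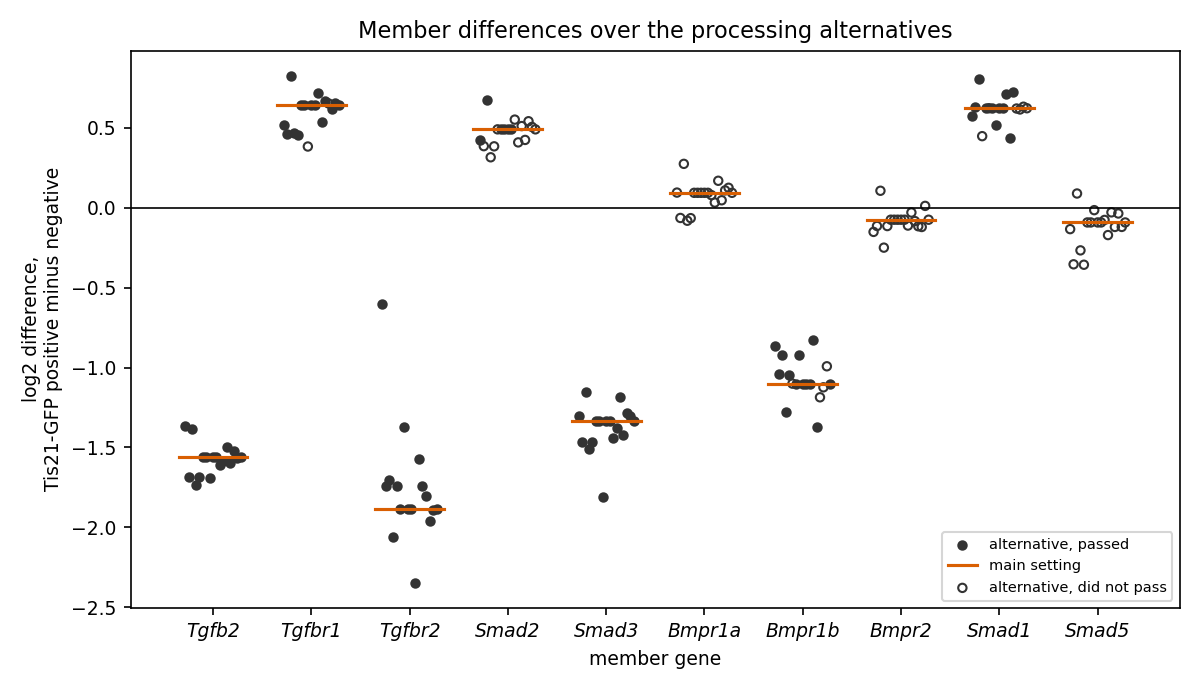
Log2 difference of each member, Tis21-GFP positive minus negative (y axis), under each alternative setting (points, filled where the adjusted p was below 0.05) and under the main setting (orange line). Tgfb2 and Smad3 passed throughout, Smad2 passed under 6 of 17 alternatives, and Bmpr1a, Bmpr2 and Smad5 passed under none and lie on both sides of 0, with Smad5 between -0.36 and 0.09.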

How the data were processed

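Per the file headers, the spot intensity in the deposited scanner files came from Agilent Feature Extraction 10.7.1.1, background-corrected and detrended but not scaled across arrays. The authors' second deposit, a table of processed values, was read as log2 from the values themselves: its columns tracked the scanner signals of their arrays on a log2 scale (correlations of 0.999 and higher), were not centred per probe and shared a median of 4.66, while how they were normalized is unknown.

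Control spots and outlier spots (118 to 191 per array) were left out, no spot was saturated (0 spots), and spots of a probe were averaged. The 75th percentile of each array, between 213 and 341 intensity units, was subtracted on the log2 scale. A gene was represented by its brightest probe, kept if the scanner called it well above background throughout either group (3 arrays), and compared with limma 3.58.1 in R 4.3.3, after a test on simulated data. Probes were named through accessions in a RefSeq table (GRCm38.p6): 26364 of 55681 matched. Where no array of a group was above background, the fold was taken against the lowest signal above background on each array, and is not a firm bound. The normexp alternative used the median spot signal, in place of the mean, and an offset of 50. That offset is added to every spot and shrinks the log2 differences of dim probes.

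For arrays that share a replicate number, deviations from the group means had correlations of 0.23, 0.13 and 0.37, and no other combination exceeded 0.06. The numbers were therefore taken as pairs. The main fit had no block for them, so its standard errors and p-values leave the pairs out. A fit with the pairs as a block was run beside it, and the counts it changed are given below. Each replicate pooled embryos, and p-values measure the spread between these pools. All arrays were on 1 slide. The members, gene lists and tests were chosen with earlier results of these data known. Genes named beyond the members were up to 4 called genes per role with the smallest adjusted p, of which 1 is not reported here.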

Additional observations from a re-analysis of the deposited data

How the results depend on the processing

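Over all alternatives, the 10 members kept direction and side of the threshold in 140 of 169 cases, lost the call in 23 and changed sign in 6. The sign changes were those of Bmpr1a with quantile normalization (-0.064), the percentile over detected probes (-0.081) and the authors' processed values (-0.065), of Bmpr2 with median centring (0.11) and without negative replicate 3 (0.012), and of Smad5 with median centring (0.089), none of them called. The number of members that rose was 3, and it was 1 with the percentile over detected probes, with no filter on dim probes and in the fit over all probes, an alternative chosen after seeing the data, and 0 to 2 with single arrays left out. The number that fell, 4, was 3 to 4 with single arrays left out. The TGF-beta median was -0.60 with normexp and -0.42 where Tgfbr2 was not tested, and -1.44 to -1.19 with single arrays left out. The BMP median was 0.11 with median centring and -0.25 with the percentile over detected probes, and -0.12 to 0.01 with single arrays left out. Rises among the wider pathway genes numbered 6 with median centring, 5 with the variance trend and 2 to 3 with single arrays left out, and falls numbered 14 to 21 with single arrays left out, 13 with median centring and 26 with the percentile over detected probes. With the replicate block, all 7 calls among the members were kept, and 25 wider pathway genes fell against 19 without it. Over all genes, calls numbered 1689 higher and 1715 lower, 2020 and 1964 with the replicate block, 2345 and 1777 with the variance trend, 2347 and 1216 with median centring, 929 and 2276 with the percentile over detected probes, 1128 and 1718 with quantile normalization, 1120 and 1717 with the authors' values, and 896 and 1377 with no filter. Without negative replicate 1 they were 762 and 1175, without negative replicate 3 they were 780 and 1278, and without positive replicate 1 they were 1057 and 1539. The causes were not tested. Tgfbr2, Inhba, Bmp3 and Tgfbi were not above background on every positive array, and their differences shrank by over 1.5 times with normexp. Shrinkage was not limited to them. Among genes above background on all 6 arrays, Gdf5 went from -0.72 to -0.21, Ski from -0.61 to -0.23, Rgmb from 1.47 to 0.67 and Smad6 from -0.72 to -0.34.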

Other observations

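Of the 43 wider pathway genes that did not pass, 12 had groups that did not overlap, which is 27.9% beside 28.2% of all genes that did not pass, so their share is close to the background. They were chosen after their values were seen. The activin type II receptors were both on the higher side, Acvr2a at 0.40 (adjusted p = 0.0678) and Acvr2b at 0.25 (adjusted p = 0.206), and so were the BMP antagonist Chrd at 0.46, Id2 at 0.55 and the ubiquitin ligase gene Rnf111 at 0.32. On the lower side were the vascular receptors Acvrl1 at -0.30 and Eng at -0.51, the ligands Inha at -0.64 and Gdf7 at -0.36, the activin-binding protein gene Fstl3 at -0.70 (adjusted p = 0.0501), and the targets Msx1 at -0.57 (adjusted p = 0.0519) and Cdkn1a at -0.67. Id2 was at 2.70, 2.44 and 2.35 on the positive arrays, against 2.31, 1.89 and 1.65 on the negative arrays, while Id1 and Id4 fell.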
